A study of Homo sapiens with 12 samples.

Results

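CRYBG1, PDE4A and NFE2L1 are 3 human genes that each hold, inside the gene, a stretch of chromatin whose accessibility fell steeply after palbociclib. The genes were chosen by the measured ATAC log2 change of those 3 peaks. By size of fall they ranked 1 for PDE4A, 2 for CRYBG1 and 3 for NFE2L1. The ranking took peaks with a mean of at least 50 counts, an edgeR adjusted p under 0.05 and groups that did not overlap. The members are the 3 RNA rows of these genes, of 19460 rows in all, and the 20 accessible peaks that overlap a gene span extended by 50 kb on each side, of 38121 peaks in all. The span ran from the lowest to the highest exon coordinate of the gene in the authors' table of skipped exon events. PDE4A had no event there, so its RefSeq span was used. The CRYBG1 window held 3 peaks, the PDE4A window 9 and the NFE2L1 window 8.

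The cells were T-47D, an established human breast cancer line of luminal epithelial type that carries the oestrogen receptor, labelled wild type in the RNA samples. They had received 1 µM palbociclib, an inhibitor of the cell cycle kinases CDK4 and CDK6, or the solvent DMSO, for 24 h. Poly(A) RNA was sequenced in 3 libraries per treatment, and ATAC-seq, which reads how open chromatin is to the transposase Tn5, was run on another 3 per treatment. For ATAC-seq the controls received 0.1% DMSO and the replicates were cultured in separate dishes. All libraries came from the same line, so the results describe that line at 1 dose and 1 time.

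CRYBG1, also known as AIM1, is a large protein with beta/gamma crystallin domains that associates with actin. PDE4A is a phosphodiesterase that breaks down the second messenger cyclic AMP, and its long and short forms are made from different starts in the gene. NFE2L1, also known as NRF1, is a transcription factor held in the membrane of the endoplasmic reticulum, from where it is extracted by VCP, stripped of sugars by NGLY1 and cut by DDI2. In its freed form it is best known for raising the genes of the proteasome when proteasome activity is low.

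The sequences before 4 RefSeq starts of these genes are shown because they mark which starts have an accessible peak beside them and which do not. All 3 genes matched RefSeq promoters on GRCh38.p14 and lie on the plus strand, with 2 starts for CRYBG1, 5 for PDE4A and 2 for NFE2L1. Each sequence is the 250 bases before a start, 5′ to 3′, and capitals mark matches to the motifs listed after them.

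CRYBG1 outer start, chr6:106360467-106360716: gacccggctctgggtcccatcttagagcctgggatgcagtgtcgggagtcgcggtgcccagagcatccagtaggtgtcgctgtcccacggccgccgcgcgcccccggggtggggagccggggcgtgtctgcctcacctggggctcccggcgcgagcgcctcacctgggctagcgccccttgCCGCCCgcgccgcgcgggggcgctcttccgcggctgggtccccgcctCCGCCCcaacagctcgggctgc
PDE4A first start, chr19:10416523-10416772: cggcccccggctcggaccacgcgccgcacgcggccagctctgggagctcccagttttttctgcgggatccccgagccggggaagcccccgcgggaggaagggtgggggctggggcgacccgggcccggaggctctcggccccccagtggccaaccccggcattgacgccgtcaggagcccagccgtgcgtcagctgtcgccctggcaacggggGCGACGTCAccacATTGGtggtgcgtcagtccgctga
PDE4A last start, chr19:10452682-10452931: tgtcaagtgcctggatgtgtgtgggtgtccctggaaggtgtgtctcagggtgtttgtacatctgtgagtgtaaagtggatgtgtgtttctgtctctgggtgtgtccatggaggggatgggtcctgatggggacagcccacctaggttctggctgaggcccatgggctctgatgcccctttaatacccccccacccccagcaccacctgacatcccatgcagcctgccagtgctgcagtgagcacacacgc
NFE2L1 first start, chr17:48048109-48048358: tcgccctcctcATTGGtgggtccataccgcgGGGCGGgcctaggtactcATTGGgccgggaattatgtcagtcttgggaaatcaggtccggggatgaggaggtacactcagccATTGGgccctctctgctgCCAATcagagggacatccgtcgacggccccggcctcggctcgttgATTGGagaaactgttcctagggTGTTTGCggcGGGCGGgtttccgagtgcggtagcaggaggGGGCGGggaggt

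The inner start of CRYBG1 lies inside an exon of the longer transcripts, so only the 30 bases around its motif matches are shown.

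CRYBG1 inner start, chr6:106511800-106511829: atgaaaaTGATTCAccCCAATtagaacctc

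The outer CRYBG1 promoter was 76.4% G and C with 30 CpG dinucleotides, against a median of 58.0% and 11 CpG over 35097 RefSeq promoters, and it held 2 GC boxes. The inner CRYBG1 promoter was 63.6% G and C and held 1 AP-1 motif, 48 bases before the start, and 1 CCAAT box, 39 bases before it. The promoter of the first PDE4A start was 74.0% G and C and held 1 CCAAT box and 1 match to the antioxidant response element. The promoter of the last PDE4A start was 58.0% G and C with 1 CpG and held none of the motifs searched. The first NFE2L1 promoter held 5 CCAAT boxes, 3 GC boxes and 1 forkhead motif.

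Both strands were searched, and shares are of all promoters of this length. The AP-1 motif was searched as TGANTCA and occurs in 6.6% of them. The GATA motif was searched as AGATAA (9.2%). The forkhead motif was TGTTTAC and, as its other spelling here, TGTTTGC (6.1% with either). The E2F motif was TTTCCCGC or TTTGGCGC (1.9% with either). The CHR motif was TTTGAA and, as its other spelling here, TTCGAA (14.3% with either). The box named CCAAT was searched by those letters (32.0%), and the GC box, bound by SP1 and its relatives, as GGGCGG (42.6%). The antioxidant response element was searched as TGACNNNGC (10.9%). The cyclic AMP response element was searched as TGACGTCA (1.6%). The motif of ETS factors was searched as CCGGAAG (8.5%), and the TATA box, which places the start in some promoters, as TATAAA (10.7%). No match to the E2F or CHR motif was found in the sequences above. Among the promoters searched but not shown, that of the PDE4A start at chr19:10420538 held 1 CHR match. The motif letters are a description of these windows and do not show that a factor binds there. The 3 falling peaks themselves lie outside the promoter sequences used here, and their bases are not shown.

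The falling peak in CRYBG1, chr6:106510102-106511029, is 928 bases long and lay 826 bases upstream of the inner start. Accessibility is given in CPM, counts scaled to 1 M counts in peaks after TMM normalization. It was 51.0, 47.5 and 52.8 CPM in DMSO replicates 1 to 3 and 17.5, 17.5 and 17.6 CPM in palbociclib replicates 1 to 3, from raw counts of 649, 866, 749, 285, 258 and 247. The palbociclib libraries were nearly alike, and all 3 lay far below the DMSO libraries. The mean went from 50.44 ± 2.68 to 17.53 ± 0.0642 CPM (SD, n = 3), a log2 change of -1.52. The peak sits in the intron before the exon at chr6:106511430-106513039, 401 bases from it, and 58270 bases after the end of the exon before it. It was well filled in DMSO, with more CPM per kb than 80.5% of all peaks, and in palbociclib that share was 37.9%.

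The falling peak in PDE4A, chr19:10450940-10451259, is 320 bases long and lay 1673 bases upstream of the last start, whose promoter is shown above. It was 5.03, 5.71 and 5.92 CPM in DMSO replicates 1 to 3 and 1.72, 2.11 and 1.92 CPM in palbociclib. These rest on only 64, 104 and 84 counts in DMSO and 28, 31 and 27 counts in palbociclib. Every palbociclib library was below every DMSO library, which the ranking required of all 3 falling peaks. The mean went from 5.552 ± 0.463 to 1.916 ± 0.196 CPM, a log2 change of -1.54. This was a modest peak in DMSO, above 35.0% of peaks per kb, and in palbociclib only 0.231% of peaks were lower per kb.

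The falling peak in NFE2L1, chr17:48055598-48056026, is 429 bases long and intronic. It lay 360 bases before the exon that starts at 48056386, 3970 bases after the exon that ends at 48051628, and 6817 bases downstream of the nearer RefSeq start. It was 17.5, 14.9 and 18.3 CPM in DMSO replicates 1 to 3 and 5.94, 5.03 and 6.91 CPM in palbociclib. The raw counts were 222, 272 and 260 in DMSO and 97, 74 and 97 in palbociclib. The mean went from 16.9 ± 1.77 to 5.962 ± 0.938 CPM, a log2 change of -1.50. The peak was above 71.3% of peaks per kb in DMSO and above 20.4% in palbociclib.

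The ratio of the palbociclib to the DMSO mean was 0.348 in CRYBG1, 0.345 in PDE4A and 0.353 in NFE2L1. These values chose the loci, so no test of them is given here, and their likeness follows from the choice of the 3 largest falls. The next peak in order of fall, outside these loci, had a log2 change of -1.48 and went from 26.15 to 9.389 CPM.

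**Figure D1:**
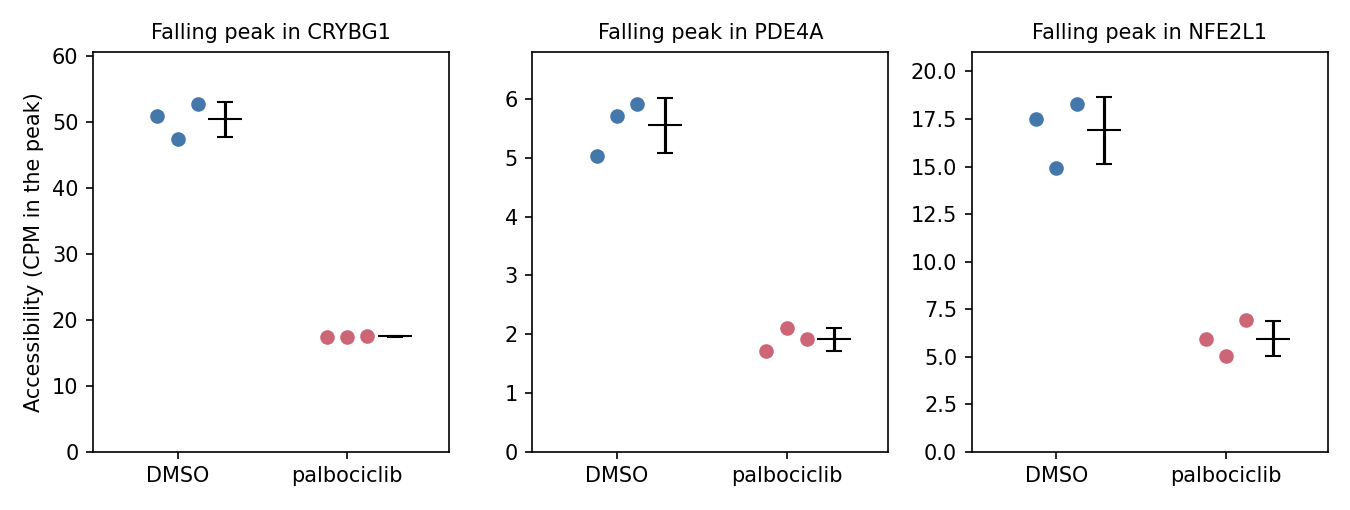
Accessibility of the falling peak of each gene in CPM (vertical axis, starting at 0, different scale per panel) in the 3 DMSO and 3 palbociclib ATAC libraries. Points are libraries, and the black bar and whiskers are the mean and SD. In each panel all palbociclib points lie below all DMSO points, as the choice of the peaks required. The means are 17.53 against 50.44, 1.916 against 5.552 and 5.962 against 16.9 CPM.

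At the RNA level CRYBG1 fell, NFE2L1 did not pass the test, and PDE4A was close to silent in both groups and too low for the test. The ratio of the palbociclib to the DMSO mean was 0.581 for CRYBG1 and 0.622 for PDE4A. A difference in change between CRYBG1 and PDE4A is therefore not shown. RNA is given in FPKM, fragments per kb of transcript per 1 M, which is per length and so allows levels of different genes to be compared. The order of the levels was NFE2L1, then CRYBG1, then PDE4A, with ranges over the libraries that did not overlap between neighbours in that order. The RNA test was limma on log2(FPKM + 1), and 15869 genes whose mean reached 0.5 FPKM entered it. It called 43.7% of those genes at an adjusted p under 0.05, 20.9% higher and 22.9% lower, so a call by itself is common in these data.

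CRYBG1 (ENSG00000112297) was at 11.93, 11.52 and 10.7 FPKM in DMSO replicates 1 to 3 and at 6.617, 6.282 and 6.942 FPKM in palbociclib. The lowest DMSO library was well above the highest palbociclib library. The mean went from 11.39 ± 0.627 to 6.614 ± 0.33 FPKM (SD, n = 3), a ratio of 0.581. The change on the log2(FPKM + 1) scale was -0.70 (SE 0.0593), with a limma adjusted p of 3.13e-05. Only 4.95% of the genes tested had a lower change. The authors' deposited table gives a DESeq2 log2 change of -0.78 (SE 0.0576, adjusted p 1.14e-40) for it. In a culture measured as a whole, fewer cells with the transcript and less transcript per cell cannot be told apart.

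NFE2L1 (ENSG00000082641) was the most abundant of the 3, at a level above 93.0% of the genes tested. It was at 80.65, 84.39 and 84.09 FPKM in DMSO and 88.4, 83.9 and 80.69 FPKM in palbociclib, and the groups overlapped. The means were 83.04 ± 2.08 and 84.33 ± 3.87 FPKM. The change on the log2(FPKM + 1) scale was 0.02 (SE 0.0402) with a limma adjusted p of 0.703, and without palbociclib replicate 1 its sign turned, at -0.01 with a limma adjusted p of 0.824.

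PDE4A (ENSG00000065989) was at 0.2326, 0.2159 and 0.2912 FPKM in DMSO and at 0.09206, 0.1982 and 0.1695 FPKM in palbociclib. The groups did not overlap, a pattern shown by 54.7% of the genes tested, but palbociclib replicate 2 lay close to the lowest DMSO library. The mean went from 0.2465 ± 0.0395 to 0.1533 ± 0.0549 FPKM, a ratio of 0.622. It lay below the level needed for the test. With that filter lifted, limma gave -0.11 on the log2(FPKM + 1) scale with an adjusted p of 0.138. At so low a level the size of this change depends on the pseudocount: with 0.1 in place of 1 it was -0.47, not tested. The authors' deposited table gives a DESeq2 log2 change of -0.68 (SE 0.361) with an adjusted p of 0.133.

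**Figure D2:**
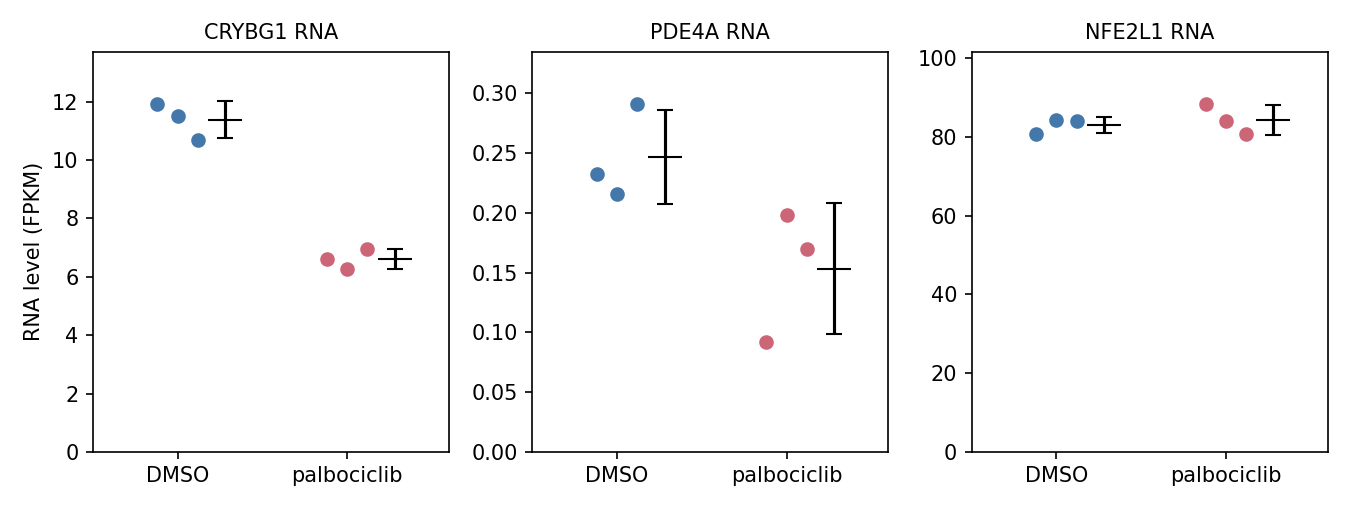
RNA level of CRYBG1, PDE4A and NFE2L1 in FPKM (vertical axis, starting at 0, different scale per panel) in the 3 DMSO and 3 palbociclib RNA libraries. Points are libraries, and the black bar and whiskers are the mean and SD. CRYBG1 drops from 11.39 to 6.614 FPKM, NFE2L1 stays within overlapping groups near 83.04 and 84.33 FPKM, and PDE4A is below 0.3 FPKM in every library.

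The level of RNA and the presence of a listed peak at a start did not go together in these genes. NFE2L1, the most abundant, had no peak on or near its starts: the nearest peak was 7239 bases from the first and 6817 bases from the second. CRYBG1 had none within 20761 bases of its outer start, and its falling peak was the nearest to the inner one. PDE4A, near silent, had a strong peak right over its first start. Across all genes with a RefSeq start, 675 of 1613 genes (41.8%) with a mean of at least 50 FPKM had a peak within 1 kb of a start, against 485 of 1484 (32.7%) below 0.5 FPKM. Both arrangements are thus shared by many genes. The peak set holds only regions that passed peak calling, so a start without a listed peak is not shown to be closed.

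Of the 17 peaks in the 3 windows other than the falling ones, 4 were lower with palbociclib and 0 were higher by the edgeR quasi-likelihood test. That is 23.5% of them, against 11.9% of all peaks called in either direction, 5.41% higher and 6.46% lower. No other peak was higher at an unadjusted p under 0.05 either, and DESeq2 also called 0 higher. The median log2 change was -0.09, against 0.00433 over all peaks, and the range was -0.68 to 0.21. By locus, 0 of 2 were lower around CRYBG1, 3 of 8 around PDE4A and 1 of 7 around NFE2L1. In 5 of the 17 peaks the groups did not overlap, against 28.3% of all peaks.

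Around CRYBG1 the 2 other peaks were weak and lay inside the gene. The peak at chr6:106496787-106497195 before the falling one was at 8.65, 6.75 and 7.33 CPM in DMSO and 8.4, 7.96 and 9.47 CPM in palbociclib. Its log2 change was 0.19 with an edgeR adjusted p of 0.45. The peak at chr6:106566303-106566953, near the 3′ end of the gene, was at 9.2, 8.39 and 8.88 CPM in DMSO and 8.46, 7.82 and 7.05 CPM in palbociclib, with a log2 change of -0.17 and an edgeR adjusted p of 0.489. In both peaks the groups overlapped. Summed, they were at 16.4 ± 1.36 CPM in DMSO and 16.38 ± 0.55 CPM in palbociclib (exact permutation test, two-sided, p = 1.0). The falling peak made up 75.5% ± 1.25 of the counts of the window in DMSO and 51.7% ± 0.888 in palbociclib. The window leaves out the 5′ part of the RefSeq gene, so the sum and the share do not cover the whole gene.

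The PDE4A window was rich in accessible chromatin, and the falling peak was a small part of it, 1.59% ± 0.126 of its counts in DMSO and 0.611% ± 0.0643 in palbociclib. The peak over the first PDE4A start, chr19:10416214-10417106, was at 74.4, 70.2 and 79.7 CPM in DMSO and 67.6, 67.3 and 61.7 CPM in palbociclib. All palbociclib libraries were below all DMSO libraries by a small margin. The log2 change was -0.19 (SE 0.0601) with an edgeR adjusted p of 0.0299. The call was lost with DESeq2 (adjusted p 0.0813) and, in edgeR, without DMSO replicate 1 (adjusted p 0.0683), DMSO replicate 3 (0.217), palbociclib replicate 1 (0.0532) or palbociclib replicate 3 (0.12). Over its alternatives the adjusted p ran from 0.0183 to 0.217.

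Inside PDE4A, the peak of highest density was chr19:10460923-10461744, which overlaps an exon starting at 10461526. It was at 94.7, 92.6 and 94.9 CPM in DMSO and 92.7, 90.5 and 99.1 CPM in palbociclib, with a log2 change of 0.000325 and an edgeR adjusted p of 0.998. So within the same gene a peak above 94.5% of all peaks per kb had equal means in both groups while the small falling peak lost most of its signal. The peak at chr19:10424189-10424900, downstream of the second start, was at 26.72 ± 4.99 CPM in DMSO and 24.38 ± 1.27 CPM in palbociclib and was not called (edgeR adjusted p 0.405).

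Past the end of PDE4A, in the stretch before KEAP1, the peak chr19:10478966-10479256 overlaps no RefSeq gene. It was at 12.7, 12.5 and 10.4 CPM in DMSO and 8.33, 7.01 and 6.91 CPM in palbociclib, without overlap. Its log2 change of -0.68 (SE 0.14, edgeR adjusted p 0.00041) was the lowest among the 17. On the other side, the peak over the start of TYK2, chr19:10380249-10381180, was at 107, 107 and 111 CPM in DMSO and 88.2, 92.0 and 96.6 CPM in palbociclib. Its log2 change was -0.23 (edgeR adjusted p 0.00132), and all palbociclib libraries were below all DMSO libraries. TYK2 encodes a JAK family kinase that serves interferon and interleukin receptors. The remaining 3 peaks of the window, at chr19:10388810-10389300, chr19:10390567-10391126 and chr19:10471880-10472383, had means of 8.808 to 10.78 CPM in DMSO and were not called. Without the falling peak the window summed to 344.5 ± 12 CPM in DMSO and 311.9 ± 6.24 CPM in palbociclib, a ratio of 0.905. The groups did not overlap, and the exact permutation p of 0.1, two-sided, is the smallest that 3 against 3 libraries allow.

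In the NFE2L1 window the falling peak was the only one inside the gene. It made up 6.61% ± 0.528 of the counts of the window in DMSO and 2.53% ± 0.336 in palbociclib. Among the others, the peak at chr17:48026534-48026823, inside COPZ2, was lower, at 35.7, 38.8 and 37.3 CPM in DMSO and 24.9, 28.1 and 28.1 CPM in palbociclib. Its log2 change was -0.47 (SE 0.0799) with an edgeR adjusted p of 1.65e-05, and the groups lay well apart. It is a dense peak of 290 bases, above 95.8% of all peaks per kb in DMSO.

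The strongest peak of the window, chr17:48107200-48108131 over the start of SNX11, reaches only 302 bases into the window. It was at 139, 132 and 148 CPM in DMSO and 143, 138 and 143 CPM in palbociclib (log2 change 0.02, edgeR adjusted p 0.85). The peak over the start of COPZ2, chr17:48036901-48037826, which also holds the microRNA gene MIR152, was at 26.72 ± 4.31 and 25.76 ± 1.47 CPM (edgeR adjusted p 0.743). It was the peak nearest to the NFE2L1 start on the upstream side, 10533 bases away. A weak peak inside CBX1, chr17:48080090-48080786, was at 6.05, 6.14 and 5.99 CPM in DMSO and 7.91, 6.19 and 6.98 CPM in palbociclib, without overlap but not called (log2 change 0.21, edgeR adjusted p 0.434). The remaining 3 peaks of the window had log2 changes of -0.14 to 0.03 and were not called. Without the falling peak the window summed to 238.6 ± 9.5 CPM in DMSO and 228.7 ± 5.91 CPM in palbociclib (ratio 0.959, exact permutation test, two-sided, p = 0.1). This is again the smallest p possible, and the groups were barely apart. DMSO replicate 1 was at 232.7 CPM and palbociclib replicate 3 at 232.5 CPM.

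The window edges decide which peaks count. The nearest peak outside, chr19:10520904-10521350, lay 1273 bases beyond the PDE4A window and was at 19.0, 18.6 and 21.5 CPM in DMSO and 15.7, 17.5 and 14.0 CPM in palbociclib. On the other side of that window, 12635 bases out, chr19:10353724-10354138 was at 5.74, 5.65 and 6.69 CPM in DMSO and 3.13, 3.88 and 3.35 CPM in palbociclib. Around CRYBG1 the nearest outside peak, chr6:106396540-106396840, lay 4854 bases out and had means of 6.026 and 6.634 CPM. The CRYBG1 window began at chr6:106401694, past the RefSeq start of the gene at chr6:106360717. That outside peak therefore lies inside the RefSeq gene, whose 5′ part with the outer start is not in the window. With windows of 100 kb, 9 of 31 other peaks were lower, and with none beyond the span, 1 of 5.

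**Figure D3:**
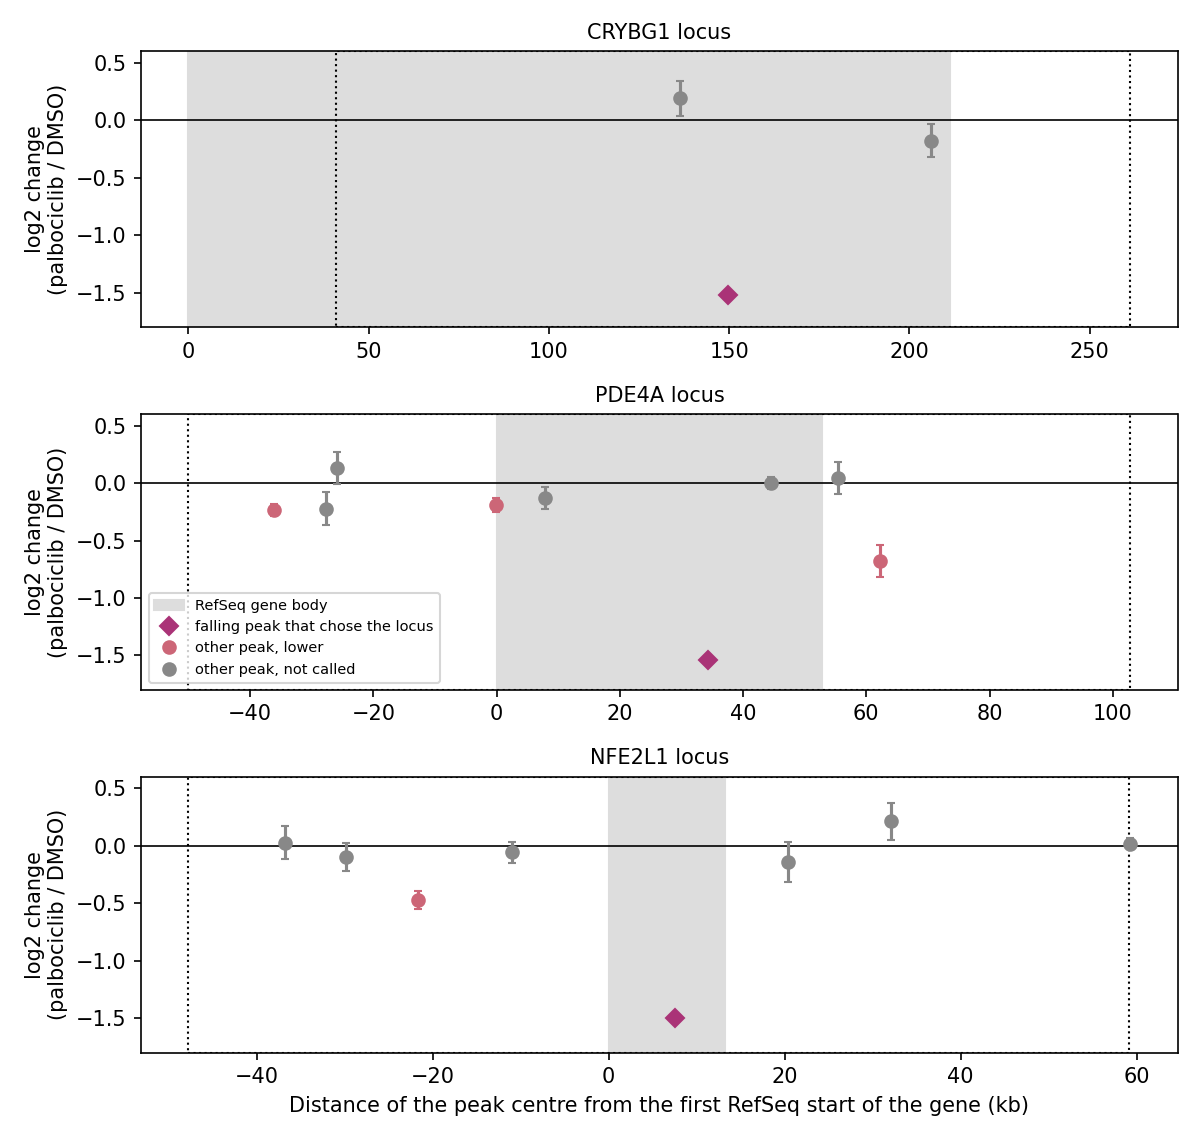
Log2 change in accessibility (vertical axis) of the 20 peaks of the 3 windows by distance of the peak centre from the first RefSeq start of the gene in kb (horizontal axis). Grey shading is the RefSeq gene, dotted lines are the window edges, diamonds are the falling peaks that chose the loci, red points are other peaks called lower, grey points were not called, and whiskers are SE. The diamonds sit near -1.5, while the 17 other peaks lie between -0.68 and 0.21.

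Of the 9 other genes with an RNA row in the windows, 2 changed, a smaller share than the 43.7% called over all genes tested. CBX1, which encodes the heterochromatin protein HP1 beta and lies beyond the 3′ end of NFE2L1, fell from 90.9, 92.36 and 94.87 FPKM to 67.45, 66.11 and 66.59 FPKM. The groups lay far apart, and the change on the log2(FPKM + 1) scale was -0.47 (SE 0.0303, limma adjusted p 6.02e-06). CDC37, a cochaperone that brings kinases to HSP90 and that lies upstream of PDE4A, rose from 79.49, 78.99 and 77.16 FPKM to 88.8, 92.0 and 87.5 FPKM. Its change on the log2(FPKM + 1) scale was 0.18 (SE 0.0319, limma adjusted p 0.00189). This gene sits between peaks of the PDE4A window of which none was higher.

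The other neighbours did not pass the test. TYK2, whose start peak was lower, went from 19.06 ± 1.34 to 17.49 ± 1.17 FPKM with overlapping groups (limma adjusted p 0.183). COPZ2, a coat protein gene that holds the called peak upstream of NFE2L1, went from 7.225 ± 1.23 to 7.854 ± 0.826 FPKM (limma adjusted p 0.457). KEAP1, the adaptor that targets the NFE2L1 relative NFE2L2 for degradation, was at 18.17 ± 0.763 and 19.39 ± 1.9 FPKM (limma adjusted p 0.351). RTN4IP1, which overlaps the 3′ end of CRYBG1, was at 5.665 ± 0.221 and 5.704 ± 0.464 FPKM (limma adjusted p 0.949), so the fall of CRYBG1 RNA had no counterpart in the only other gene of its window with an RNA row. S1PR5, a receptor for sphingosine phosphate, was at 11.07 ± 0.919 and 10.98 ± 1.26 FPKM (limma adjusted p 0.92). The divergent transcript NFE2L1-DT was at 2.342, 3.786 and 2.508 FPKM in DMSO and 2.2, 2.338 and 1.87 FPKM in palbociclib (limma adjusted p 0.12). The counting strand is not given in the sources used here, so reads of RTN4IP1 and CRYBG1 in their overlap cannot be told apart.

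The splicing tables held 17 events in the 3 genes, 6 in CRYBG1, 1 in PDE4A and 10 in NFE2L1. Events entered the test if they had 20 reads or more on average and if the rarer form took 5% or more of them. That left 1 event in CRYBG1, 3 in NFE2L1 and 0 in PDE4A, whose event had a mean of 2.333 reads. Of these 4, 0 were called by the edgeR quasi-likelihood test, against 0.35% of the 37445 events tested over 5 event types. By type the share called was 0.312% for skipped exons, 1.4% for retained introns, 0.0304% for mutually exclusive exons, 0.278% for alternative 3′ splice sites and 0.417% for alternative 5′ splice sites. At an unadjusted p under 0.05 there was 1, and by the FDR in the authors' deposited rMATS table there were 0 of 17. On simulated data the edgeR test recovered 56% of skipped exons changed by a log2 odds of 1.5, so smaller shifts can be missed.

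The NFE2L1 exon at chr17:48057032-48057121, 90 bases long, was included in part of the transcripts. Its inclusion level was 0.527, 0.446 and 0.485 in DMSO and 0.542, 0.54 and 0.508 in palbociclib, with overlapping groups. The mean went from 0.486 ± 0.0405 to 0.53 ± 0.0191 (edgeR adjusted p 0.648). For the NFE2L1 exons at chr17:48051117-48051628 and chr17:48056386-48056598, which flank the falling peak, the share of the first was 0.506, 0.49 and 0.493 in DMSO and 0.525, 0.526 and 0.532 in palbociclib. These groups did not overlap, with an edgeR unadjusted p of 0.00222 and an adjusted p of 0.224. The table treats the exons of this pair as alternatives, while the skipped exon event of the first shows it in nearly every transcript, with a level of 0.999 ± 0.00115 in DMSO and 1.0 in palbociclib. The share therefore compares reads on a pair of exons rather than a choice between them. The remaining NFE2L1 event, an alternative 3′ splice site, was at 0.933 ± 0.0134 and 0.927 ± 0.0172 (edgeR adjusted p 0.905). The tested CRYBG1 event, a pair of exons, was at 0.616 ± 0.0458 and 0.631 ± 0.0195 (edgeR adjusted p 0.984). Without DMSO replicate 3 its log2 odds change had the opposite sign, -0.0294, as had the 3′ splice site without palbociclib replicate 1, at 0.037.

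Junction reads around the CRYBG1 exon at chr6:106511430-106513039 bear on which start was used, since the inner start lies in this exon and only transcripts from further upstream reach it through a junction. Reads joining it to the exon at chr6:106451694-106451832 numbered 53, 36 and 41 in DMSO and 31, 21 and 15 in palbociclib. Reads joining it to the next exon, at chr6:106519131-106521453, numbered 97, 167 and 81 in DMSO and 46, 65 and 56 in palbociclib. In these raw counts the palbociclib libraries were lower on both sides of the exon. Only the junctions named are covered, so reads entering from another upstream exon are not included. The ratio of incoming to outgoing reads was 0.546, 0.216 and 0.506 in DMSO and 0.674, 0.323 and 0.268 in palbociclib, with means of 0.423 ± 0.181 and 0.422 ± 0.22 (exact permutation test, two-sided, p = 1.0). The libraries of a group differed widely in this ratio, and no difference between the groups larger than that spread was seen.

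**Figure D4:**
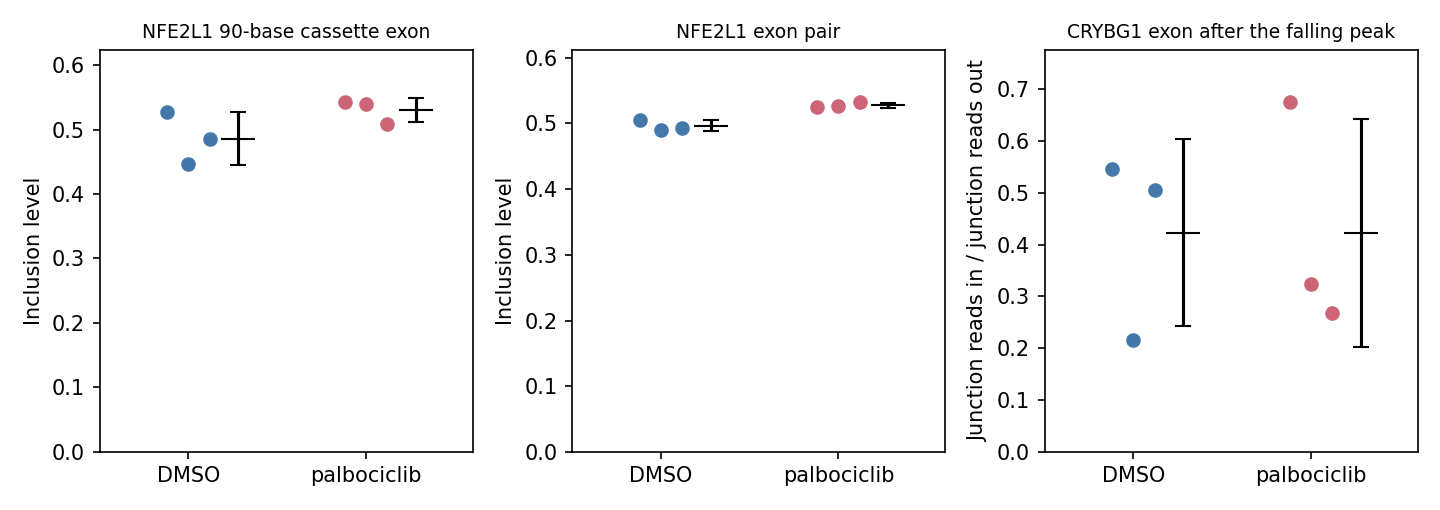
Splicing measures by RNA library: inclusion level of the NFE2L1 exon of 90 bases (left), share of the first exon of the NFE2L1 pair around the falling peak (middle), and ratio of junction reads into the CRYBG1 exon after the falling peak to those out of it (right), all on axes starting at 0. Points are libraries, black bars and whiskers are mean and SD. The DMSO and palbociclib points overlap on the left and right, and lie between 0.49 and 0.532 in the middle.

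The relatives and partners of the 3 genes were taken from 6 lists. Of the CRYBG family, all 3 members were measured and CRYBG1 alone passed the test. That is 33.3% called, against 43.7% of all genes tested. CRYBG2 was at 4.848 ± 0.505 and 5.354 ± 0.32 FPKM (limma adjusted p 0.245) and CRYBG3 at 2.897 ± 0.17 and 2.816 ± 0.262 FPKM (limma adjusted p 0.766).

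Of 16 phosphodiesterases that act on cyclic AMP, 7 had an RNA row and 3 passed the level filter. PDE8A fell from 6.823 ± 0.492 to 5.523 ± 0.602 FPKM (limma adjusted p 0.0307), a call that was lost without DMSO replicate 1 or 2, without palbociclib replicate 1 and after quantile normalization, which left 0 lower. PDE7A, the most abundant, was at 21.89 ± 0.206 and 21.1 ± 0.363 FPKM (limma adjusted p 0.289). Among the PDE4 genes, PDE4D was at 0.7826 ± 0.0522 and 0.7738 ± 0.0861 FPKM and PDE4C at 0.4804 ± 0.238 and 0.434 ± 0.0428 FPKM, so PDE4A was the lowest of the 3 with a row.

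Of 32 genes that make, sense or relay cyclic AMP, 25 had a row and 20 were tested. There, 4 rose and 2 fell, 30.0% called against 43.7% of all genes tested, with a median log2 change of -0.04 against 0.00233 over all genes. ADCY3, an adenylyl cyclase, fell from 3.124, 3.373 and 3.366 FPKM to 0.9328, 0.9422 and 1.123 FPKM (limma adjusted p 7.87e-06). ADCY10, the soluble adenylyl cyclase, rose from 3.856 ± 0.28 to 7.93 ± 0.483 FPKM. RAPGEF3, an exchange factor switched on by cyclic AMP, rose from 10.78 ± 1.28 to 15.5 ± 0.351 FPKM, and PRKAR1A, a regulatory subunit of protein kinase A, from 151.7 ± 0.595 to 170.2 ± 4.61 FPKM. The count of 2 lower became 1 when DMSO replicate 1, 2 or 3 or palbociclib replicate 1 or 2 was left out, and after quantile normalization.

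Among 20 relatives and regulators of NFE2L1, 19 had a row and 18 were tested, of which 4 rose and 2 fell. That is 33.3% called, against 43.7% of all genes tested, and the median log2 change was 0.03, against 0.00233. DDI2, NGLY1 and VCP, the genes of the processing proteins named above, did not pass the test. DDI2 was at 7.297 ± 0.277 and 7.333 ± 0.455 FPKM, NGLY1 at 21.39 ± 0.766 and 21.42 ± 0.523 FPKM, and VCP at 100.3 ± 1.75 and 105.5 ± 3.6 FPKM. Of its small MAF partners, 1 rose, 1 fell and MAFF, at 1.12 ± 0.122 and 1.164 ± 0.0539 FPKM, was not called. MAFK rose from 22.64, 22.5 and 22.8 FPKM to 35.47, 35.81 and 38.73 FPKM, and MAFG fell from 6.741 ± 0.385 to 4.845 ± 0.113 FPKM. SYVN1, a ubiquitin ligase of the endoplasmic reticulum, rose from 35.07 ± 1.46 to 42.35 ± 1.65 FPKM. SEL1L, listed with it, rose from 43.93 ± 1.59 to 51.13 ± 1.48 FPKM, and OGT from 20.24 ± 0.435 to 23.63 ± 0.218 FPKM. HCFC1, a chromatin cofactor, fell from 22.57 ± 0.585 to 17.76 ± 0.0815 FPKM.

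All 33 proteasome subunit genes, the best known targets of NFE2L1, were tested, and 20 were lower and 1 higher, 63.6% called. Over all genes tested 43.7% were called, 22.9% lower and 20.9% higher. With 1 library left out, the count of lower genes ran from 14, without DMSO replicate 3, to 19, without palbociclib replicate 1. The median log2 change was -0.13, against 0.00233 over all genes. PSMC3, an ATPase of the regulatory particle, fell furthest, from 141.6, 141.5 and 154.8 FPKM to 91.25, 84.66 and 87.05 FPKM (-0.73 on the log2(FPKM + 1) scale, SE 0.0452, limma). The ubiquitin receptor ADRM1 went from 66.04 ± 1.13 to 52.52 ± 1.62 FPKM, and the other regulatory particle subunits PSMD12 from 82.49 ± 3.01 to 66.57 ± 1.6 FPKM and PSMD2 from 262.5 ± 17.8 to 214.8 ± 22.5 FPKM, all lower by limma. Most other falls were small, and the call of the higher gene, PSMA1, was lost without DMSO replicates 1 or 2, palbociclib replicates 1 or 2 and with the replicate number as a block, each leaving 0.

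Of 19 genes of the antioxidant response, which NFE2L1 and NFE2L2 share, 18 had a row and 17 were tested. There, 7 fell and 4 rose, 64.7% called, against 43.7% of all genes tested, 22.9% lower and 20.9% higher. The median log2 change was -0.14, against 0.00233 over all genes, and after quantile normalization 4 fell. MT2A, a metal-binding metallothionein, went from 41.21, 40.63 and 35.09 FPKM to 11.81, 10.29 and 9.141 FPKM, a change of -1.81 on the log2(FPKM + 1) scale. HMOX1, which breaks down haem, fell from 6.161 ± 0.345 to 3.897 ± 0.228 FPKM. In the other direction, ABCC3, an efflux pump, rose from 8.713 ± 0.812 to 13.51 ± 1.47 FPKM and OSGIN1, a gene induced by oxidative stress, from 63.29 ± 2.2 to 92.24 ± 1.83 FPKM.

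**Figure D5:**
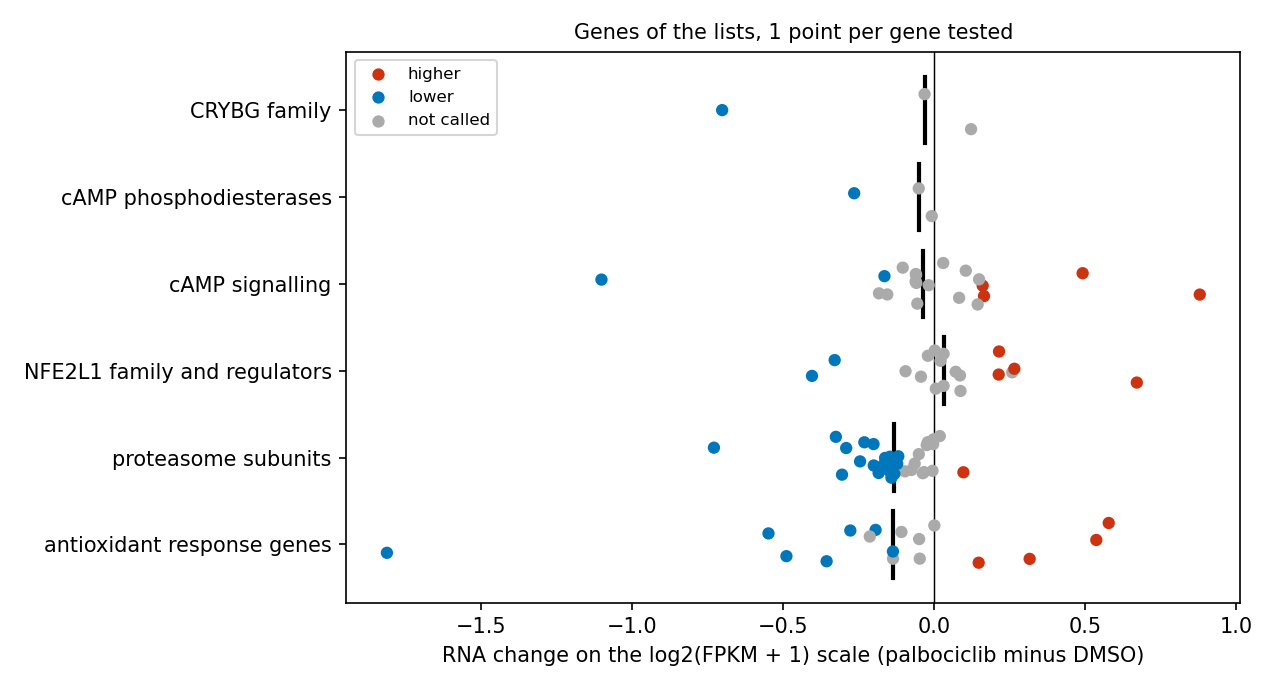
RNA change on the log2(FPKM + 1) scale, palbociclib minus DMSO (horizontal axis), of the tested genes of the 6 lists (rows). Each point is a gene, red if higher, blue if lower and grey if not called by limma at an adjusted p under 0.05, and black lines are list medians. The proteasome subunits have 20 blue points and 1 red one, and MT2A is the leftmost point at -1.81.

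Over the 6 RNA libraries, the genes whose log2(FPKM + 1) values ran most alike to each member, of 13820 genes searched, are given as a description. For CRYBG1 they were ZNF93 (Pearson r 0.9998), ZNF680 (0.9983) and PASK (0.9982). ZNF93 went from 6.448 ± 0.333 to 3.61 ± 0.189 FPKM, and PASK from 8.712 ± 0.764 to 3.123 ± 0.357 FPKM. For PDE4A they were SERF1A (0.991), NIPAL1 (0.9897) and DNTTIP1 (0.9897), of which SERF1A has a near-identical copy and is uncertain. For NFE2L1 they were FRAT1 (0.9853), FLVCR2 (0.9833) and CHMP3 (0.9651). For CRYBG1 the likeness rests mainly on the gap between the treatments, and for NFE2L1, whose groups overlap, on differences between single libraries.

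As a check on the cells, the 8 luminal epithelial markers all had a row and summed to 5340 to 5870 FPKM in DMSO and 7190 to 7970 FPKM in palbociclib. The basal or mesenchymal markers with a row, 2 of 5, summed to 1.23 to 2.25 FPKM over all libraries, and the fibroblast markers, 2 of 3, to 23.4 to 26.5 FPKM, nearly all of it COL1A1. The 1 immune marker with a row was at 0.0105 to 0.173 FPKM. The most abundant luminal marker was KRT19, with a mean of 2510 FPKM. The luminal sum thus leans on abundant genes and does not show that each marker rose. The part of the rise of that sum in the results above was not tested. The ATAC libraries held 12830062 to 18250496 counts in peaks.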

How the data were processed

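Poly(A) RNA and ATAC-seq of T-47D cells were compared between 3 palbociclib and 3 DMSO libraries per assay, grouped by the labels. FPKM per gene are the authors' deposited values, and the submitters' processing notes name fastp 0.23.2, Salmon 1.10.2, STAR 2.7.10b and DESeq2 1.44.0 on GRCh38. The authors' deposited DESeq2 table holds a mean normalized count (a signal value), a log2 fold change with its SE, a Wald statistic (a score) and p-values. The authors' deposited rMATS tables hold inclusion and skipping counts, inclusion levels, their difference (a score) and p-values. The rMATS version and the counting strand are not given in the sources used here. Per the file headers, the authors' peak counts come from featureCounts on deduplicated alignments and a single peak set, and the processing notes name Bowtie2 2.5.4-6 and MACS3 3.0.3-0. The header names no option to count pairs, so counts were taken as reads.

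R 4.3.3 was used. For RNA, log2(FPKM + 1) values of genes with a mean FPKM of 0.5 or more were tested by limma 3.58.1 with a trend of the variance on the level. Peak counts were tested with the edgeR 4.0.16 quasi-likelihood test after TMM scaling, and splicing counts with edgeR per event type, with a term per library and a form-by-treatment term. Benjamini-Hochberg adjustment ran over all features tested, and a call is an adjusted p under 0.05. Single sums were compared by exact permutation, which covers the spread between libraries only. Alternatives were DESeq2 1.42.0, other scalings and filters, other windows, a replicate block and leaving out each library. The members, lists and rules were chosen with earlier results of these data known. Genes named from a list are up to 4 called genes with the largest change, and further ones, named for their role or a lost call, were added after their values were seen. Genes most alike to a member are the 3 with the highest Pearson r, and peaks named include the strongest, the one nearest the start and those called. On simulated data, 91.5% of 200 genes among 15869 and 91.5% of 200 peaks among 38121, changed by a log2 of -0.7, were recovered. False calls numbered 9 and 8. The changed genes were drawn from levels above the filter, so recovery near it is not covered. Of 200 skipped exons among 12816, changed by a log2 odds of 1.5, 56% were recovered, with 9 false calls. The simulated peaks and exons had a fixed spread between libraries not taken from the data, so recovery at the measured spread is not covered. Gene bounds, starts and sequences came from RefSeq on GRCh38.p14. The RNA labels name no separate cultures, so their p-values measure the spread between these samples, which may be technical.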

Additional observations from a re-analysis of the deposited data

How the results depend on the processing

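CRYBG1 RNA stayed lower past the threshold in all 11 alternatives, with log2(FPKM + 1) changes of -0.77 to -0.61. For PDE4A a pseudocount of 0.1 in place of 1 gave -0.47, and leaving out 1 library gave -0.14 to -0.07. NFE2L1 RNA was not called in any alternative run, and leaving out 1 library gave -0.0129 to 0.0522, with the opposite sign only without palbociclib replicate 1. The 2 changed neighbours stayed 2 in all 10 alternatives. The count of 4 lower peaks was 1 of 5 with no extension of the span and 9 of 31 with 100 kb, since these windows hold other peaks. With RefSeq spans for all 3 genes, an alternative chosen after seeing the data, it was 4 of 21, and in the others 3 to 4. Splicing stayed at 0 calls throughout, and log2 odds changes reversed for the CRYBG1 exon pair without DMSO replicate 3 (-0.0294, against up to 0.221 with another library left out) and for the NFE2L1 3′ splice site without palbociclib replicate 1 (0.037, against down to -0.339). Same-numbered libraries deviated together weakly at most (correlations of 0.106, -0.005 and 0.088 in RNA and 0.006, 0.042 and -0.028 in ATAC). Differently numbered pairs ran from -0.139 to 0.051 in RNA and from -0.07 to 0.061 in ATAC. With the replicate block CRYBG1 was at -0.70 (limma adjusted p 0.000333), NFE2L1 at 0.02, 4 other peaks were lower and 0 higher, and 2 neighbours changed. Leaving out a library gave log2 changes for the falling peaks of -1.57 to -1.49 in CRYBG1, -1.62 to -1.46 in PDE4A and -1.61 to -1.39 in NFE2L1. Depth limits the PDE4A peak, with 27 to 104 counts per library, and the PDE4A transcript, too few reads for a splicing test.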
